A study of Mus musculus with 2 samples.

Results

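The Schlafen (Slfn) genes were compared between naive CD44- gamma/delta T cells and naive CD8+ alpha/beta T cells. Both populations were taken from lymph nodes of C57BL/6 mice and purified by negative selection, and each was read on 1 MOE430 2.0 array, so there was 1 sample a group. The number of mice behind either preparation is not given in the labels. The members are all probe sets whose only annotated gene symbol begins with Slfn, which gave 14 of the 45101 probe sets, for 10 of the 18193 genes with a probe set of their own. They are Slfn1 (2 probe sets), Slfn2, Slfn3, Slfn4, Slfn5 (3 probe sets), Slfn8, Slfn9 (2 probe sets), the pseudogene Slfn10-ps, the antisense RNA Slfn5os and the Schlafen-like gene Slfnl1. The family was selected on the signals of these same 2 arrays, with the contrast already known, so its ratios are a description and no test was made on them. Slfn14 had no probe set with 1 symbol and was not analysed here.

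Schlafen proteins take their name from the German word for sleep, after the growth arrest seen when the first member was forced on in developing mouse T cells. The mouse proteins fall into a short form (Slfn1 and Slfn2), an intermediate form (Slfn3 and Slfn4) and a long form with a helicase-like domain (Slfn5, Slfn8, Slfn9 and Slfn14). Many members are induced by type I interferon, Slfn2 is needed for the quiescence and survival of mouse T cells, and several Schlafen proteins bind or cut transfer RNA. In the mouse all but Slfnl1 lie in 1 cluster on chromosome 11, in the order Slfn5os, Slfn5, Slfn9, Slfn8, Slfn10-ps, Slfn2, Slfn1, Slfn4, Slfn3 and Slfn14 in the RefSeq annotation (GRCm38.p6), and Slfnl1 lies on chromosome 4.

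Promoter sequence of the 7 protein-coding members of the cluster that were measured is shown first, so that the letters stand beside the signals. Its motifs were picked with the signals known, so that the genes holding them also lie on 1 side in the signals is no finding. The windows come from RefSeq (GRCm38.p6) and run from 250 bases before to 50 bases after an annotated start. Those of Slfn5, Slfn9 and Slfn8 hold a match to the core of the interferon-stimulated response element, GAAANNGAAA on either strand. The match is in capitals below, with 25 bases on each side, 5′ to 3′ on the strand of the gene.
Slfn5: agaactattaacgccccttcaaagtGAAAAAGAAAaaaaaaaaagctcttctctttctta
Slfn9: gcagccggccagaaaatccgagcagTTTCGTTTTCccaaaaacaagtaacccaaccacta
Slfn8: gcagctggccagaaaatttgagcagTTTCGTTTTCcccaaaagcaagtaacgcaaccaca
The excerpt of Slfn5 is chr11:82951922-82951981 on the plus strand, that of Slfn9 chr11:82991841-82991900 on the minus strand and that of Slfn8 chr11:83020824-83020883 on the minus strand.

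The promoters of Slfn2, Slfn1, Slfn4 and Slfn3 share a different word, ACTTCCTGG, the longest run of letters common to all 4 within 250 bases upstream. It is in capitals below and contains TTCC, the core read by ETS family factors as GGAA on the other strand.
Slfn2: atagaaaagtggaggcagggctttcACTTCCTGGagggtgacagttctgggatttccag
Slfn1: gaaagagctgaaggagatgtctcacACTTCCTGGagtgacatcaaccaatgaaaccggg
Slfn4: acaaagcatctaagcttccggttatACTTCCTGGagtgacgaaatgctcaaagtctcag
Slfn3: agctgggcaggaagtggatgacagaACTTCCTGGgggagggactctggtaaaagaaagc
These 4 excerpts lie on the plus strand, at chr11:83065032-83065090 for Slfn2, chr11:83116721-83116779 for Slfn1, chr11:83175088-83175146 for Slfn4 and chr11:83191263-83191321 for Slfn3.

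Signals are linear values from the MAS5 algorithm in scaled units, and a ratio is the log2 of the gamma/delta signal over the alpha/beta signal. A signal under the floor of 243.3, the higher of the arrays' medians, was raised to the floor first. A probe set under the floor on 1 array therefore gives only a lower limit of the fold, here called a bound, and one under it on both gives no ratio. Of the 14 Slfn probe sets 8 lay above the floor on both arrays, 5 on 1 array and 1 on neither. In gamma/delta cells 1 probe set, of Slfn5, was higher by 2-fold or more and 1, of Slfn1, was lower by 2-fold or more. Over all 20297 probe sets with 1 symbol and a ratio, 5.20% were higher and 4.37% lower by 2-fold or more. The 5 probe sets above the floor on 1 array alone had to differ in the direction of that array, and they are not counted as support for a direction.

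**Figure D1:**
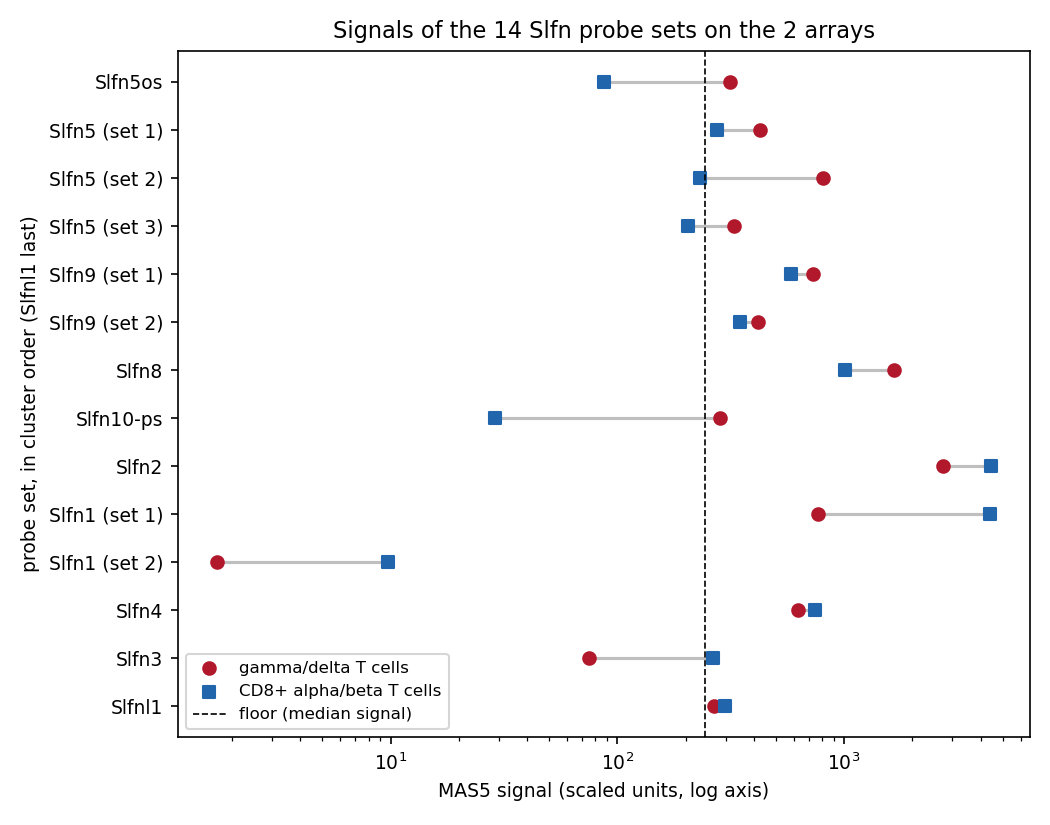
MAS5 signal (horizontal log axis, scaled units) of each Slfn probe set for gamma/delta cells (red circles) and CD8+ alpha/beta cells (blue squares), 1 array each, with the floor of 243.3 dashed. From Slfn5os to Slfn10-ps the gamma/delta point lies to the right of the alpha/beta point, and from Slfn2 to Slfn3 it lies to the left. Probe sets with a point left of the dashed line are not counted as support for a direction.

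Slfn1, whose forced expression slows the growth of mouse thymocytes, read 766.7 in gamma/delta cells and 4391 in CD8+ alpha/beta cells. It was 5.73-fold lower in gamma/delta cells (log2 ratio -2.52), and both signals lay above the floor. In such bulk samples, fewer cells with a transcript and less transcript per cell cannot be told apart. Of the 20297 probe sets with a ratio, 12 had one this low or lower, Slfn1 included. The other probe set of Slfn1 read 1.71 in gamma/delta cells and 9.77 in CD8+ alpha/beta cells, under the floor on both arrays, so it gives no measurement of the gene. With both probe sets averaged on the log2 scale the gene had signals of 36.2 in gamma/delta cells and 207.2 in CD8+ alpha/beta cells and no ratio.

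Slfn2, the other short member, which protects transfer RNA from cleavage in activated mouse T cells, read 2725 in gamma/delta cells and 4443 in CD8+ alpha/beta cells. This is a log2 ratio of -0.71, or 1.63-fold lower, and does not reach 2-fold. Among all probe sets with a ratio, 10.4% lay at or below this value, and the pooled SD of the log2 ratio between probe sets of 1 gene was 0.50. Slfn1 and Slfn2 thus were both lower in gamma/delta cells on the probe sets with a ratio, by different amounts.

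Slfn4, an intermediate member studied in mouse macrophages, where interferon induces it, read 623.2 in gamma/delta cells and 745.0 in CD8+ alpha/beta cells, a log2 ratio of -0.26. Its neighbour Slfn3, linked in rodents to the differentiation of the intestinal epithelium, read 74.7 in gamma/delta cells, under the floor, and 262.9 in CD8+ alpha/beta cells, just above it. Slfn3 was therefore lower in gamma/delta cells by a factor of at least 1.08, a bound that shows little beyond its direction. One further probe set lists both Slfn3 and Slfn4 and so is no member. It read 228.5 in gamma/delta cells and 201.3 in CD8+ alpha/beta cells, under the floor on both arrays. The 2 genes are close relatives, and how far a probe set of one also reads the other was not tested.

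Among the long members, Slfn5, an interferon-induced gene whose human counterpart acts in the nucleus, has 3 probe sets. The first read 425.9 in gamma/delta cells and 275.5 in CD8+ alpha/beta cells, a log2 ratio of 0.63. The second read 807.2 in gamma/delta cells and 231.9 in CD8+ alpha/beta cells, at least 3.32-fold higher (log2 ratio of at least 1.73). The third read 328.5 in gamma/delta cells and 204.8 in CD8+ alpha/beta cells, a log2 ratio of at least 0.43. Only the first lay above the floor on both arrays, so the 2-fold call rests on 1 of the 3 probe sets. Averaged, Slfn5 had a log2 ratio of at least 0.99, just short of 2-fold. A higher floor, at the 70th percentile of signals (447.2), left a bound of 0.85. The size of the difference in Slfn5 depends on the probe set, and the floor fixes the direction of the other 2.

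Slfn8, also of the long form, read 1658 in gamma/delta cells and 1008 in CD8+ alpha/beta cells, a log2 ratio of 0.72. Among all probe sets with a ratio, 11.1% lay at or above this value. The adjacent Slfn9 read 732.0 in gamma/delta cells and 584.1 in CD8+ alpha/beta cells on 1 probe set (log2 ratio 0.33) and 419.1 in gamma/delta cells and 346.8 in CD8+ alpha/beta cells on the other (log2 ratio 0.27). Its 2 probe sets gave nearly the same small ratio. Slfn8 and Slfn9 are close relatives, and cross-hybridisation of their probes was not tested.

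The 2 Slfn transcripts not annotated as protein-coding, Slfn10-ps and Slfn5os, were above the floor in gamma/delta cells only. Slfn10-ps, a pseudogene of the long form, read 282.8 in gamma/delta cells and 28.8 in CD8+ alpha/beta cells, at least 1.16-fold higher. Slfn5os, which overlaps Slfn5, read 314.9 in gamma/delta cells and 87.1 in CD8+ alpha/beta cells, at least 1.29-fold higher. Both gamma/delta signals lay close to the floor, so the bounds are small although the signals differ widely. A lower floor, at the 30th percentile of signals (129.6), gave bounds of log2 1.13 for Slfn10-ps and 1.28 for Slfn5os, past 2-fold. Slfnl1, the distant relative on chromosome 4, had 266.8 in gamma/delta cells and 299.7 in CD8+ alpha/beta cells, a log2 ratio of -0.17.

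Read along chromosome 11, 7 Slfn probe sets of the cluster lay above the floor on both arrays. Their ratios changed sign at 1 place, between Slfn8 and Slfn2. The 4 before it, of Slfn5, Slfn9 and Slfn8, were higher in gamma/delta cells, with a median log2 ratio of 0.48. The 3 after it, of Slfn2, Slfn1 and Slfn4, were lower, with a median of -0.71. The 5 Slfn bounds of the cluster, 4 of them up to Slfn10-ps and 1 at Slfn3, have signs that the floor fixes. They add nothing to this. Past Slfn3, the noncoding RNA AI662270, which is no Slfn gene, had ratios above 0 again (0.27 and 0.09). Of all probe sets with 1 symbol and a ratio, 50.5% lay above 0 and 49.5% below, and the median was 0.01. The place of the divide was noticed in the values, and it also separates the long members from the short and intermediate ones. Most of the ratios on either side are under 2-fold, the genes are tandem relatives, and 1 array a group gives no error for any of them.

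**Figure D2:**
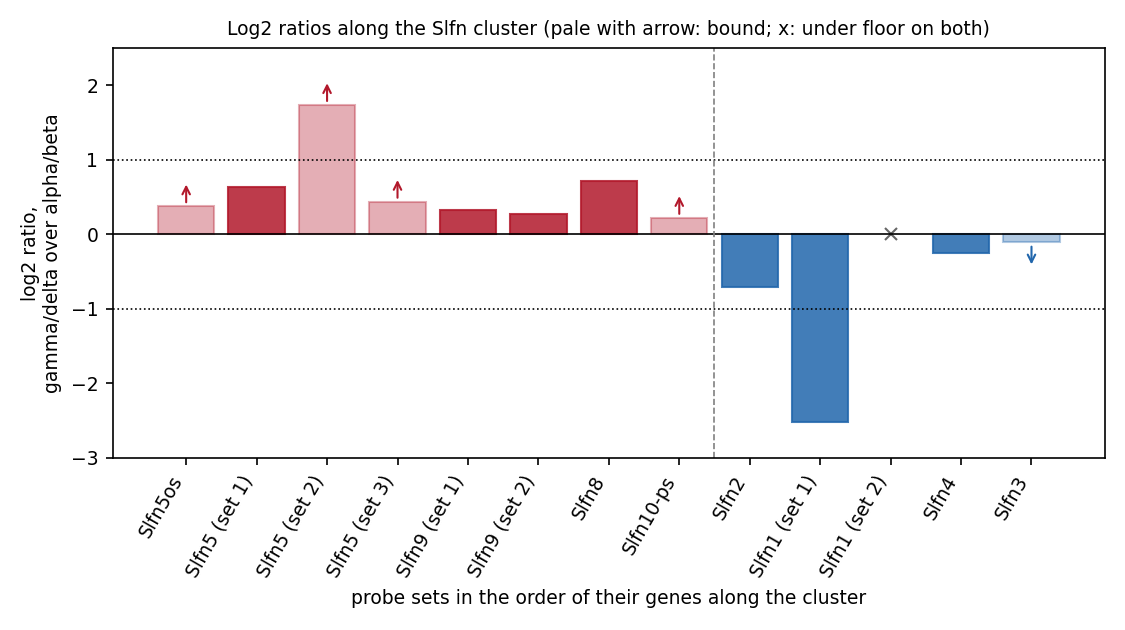
Log2 ratio of gamma/delta over alpha/beta (vertical axis) for the 13 Slfn probe sets of the chromosome 11 cluster, in the order of their genes. Solid bars are above the floor on both arrays, pale bars with an arrow are bounds, the cross marks a probe set under the floor on both, and dotted lines mark 2-fold; the solid bars are above 0 up to Slfn8 and below 0 from Slfn2 to Slfn4.

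No protein-coding gene with a ratio on either side of the cluster reached 2-fold at the floor used. Of the 9 such neighbours read here, 5 had a ratio, with log2 ratios of -0.35 to 0.47. Before Slfn5, Unc45b, a myosin chaperone, had 440.2 in gamma/delta cells and 547.1 in CD8+ alpha/beta cells (-0.31). Rad51d, a recombination protein, had a ratio of -0.35 and Rffl, a ubiquitin ligase, one of 0.29. After Slfn14, Ap2b1, a subunit of the clathrin adaptor, had 399.3 in gamma/delta cells and 288.2 in CD8+ alpha/beta cells (0.47), and Gas2l2 had a bound of 0.12. Gas2l2 read 265.0 in gamma/delta cells and 45.4 in CD8+ alpha/beta cells, and it passed 2-fold with the lower floor (a bound of 1.03) and with no floor (2.55). Fndc8, Nle1, Rasl10b and 1700020L24Rik had no signal above the floor. The probe sets of Rad51d ran from -0.37 to 0.91, so its direction is not settled.

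The core GAAANNGAAA lies 155 to 146 bases upstream of the start of Slfn5, 45 to 36 bases upstream of Slfn9 and 48 to 39 bases upstream of Slfn8, and upstream of no other of the 10 Slfn genes with a window. Slfn8 has a second annotated start, from which the same match lies 136 to 127 bases upstream. Of 32851 windows in the table, 2.98% hold this core within 250 bases upstream. The word ACTTCCTGG, or its reverse complement, begins 55 bases upstream of the start of Slfn2, 74 of Slfn1, 73 of Slfn4 and 42 of Slfn3. It is upstream in 230 of the 32851 windows and in those 4 of the 10 Slfn genes. The gamma-activated site TTCNNNGAA, a motif read by STAT factors, is upstream in 7.02% of windows and in none of the Slfn windows, which says only that these letters are absent there. No match of one motif overlapped one of another in the Slfn windows.

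**Figure D3:**
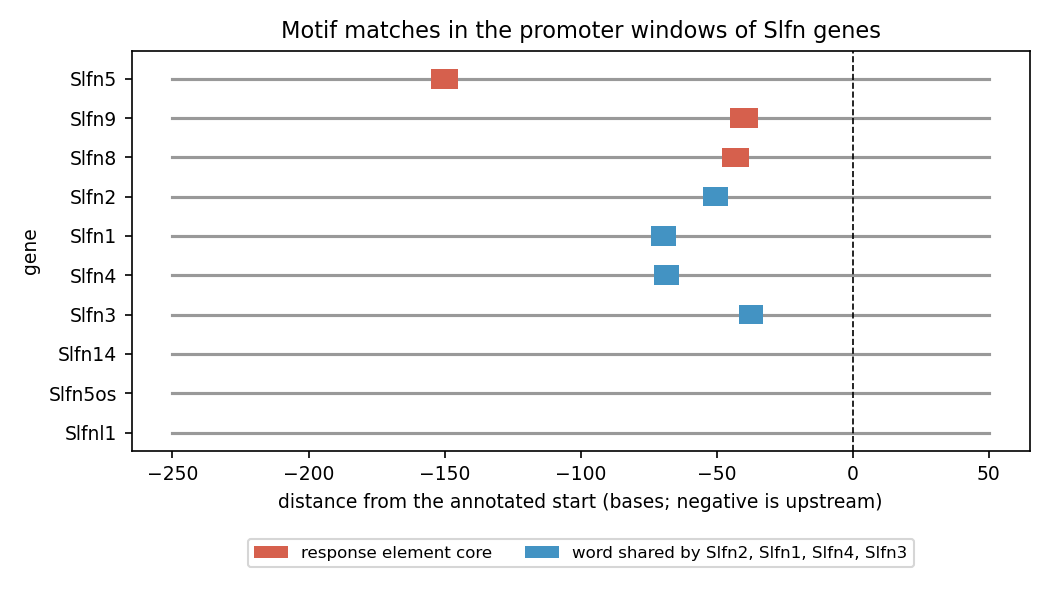
Position of motif matches (horizontal axis, bases from the annotated start, negative upstream) in the promoter windows of 10 Slfn genes, 1 window a gene. The response element core lies upstream of Slfn5, Slfn9 and Slfn8, the shared word upstream of Slfn2, Slfn1, Slfn4 and Slfn3, and neither in the windows of Slfn14, Slfn5os or Slfnl1.

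Promoters of tandem relatives can share letters by descent. Slfn9 and Slfn8 have 20 bases in common as their longest shared run, and Slfn1 and Slfn4 have 15, which include the shared word (ACTTCCTGGAGTGAC). Slfn5 and Slfn9 share no run longer than 7 bases. The word was picked because the 4 promoters share it, so its presence there is no finding. Of 81 other genes with the word upstream and a ratio, 1 was lower and 7 were higher by 2-fold or more, 52 had a ratio above 0, and the median was 0.17. These are shares of 8.64% higher, 1.23% lower and 64.2% above 0. The other 9473 genes with a window and a ratio had a median of 0.03. Of those 9473 genes 5.82% were higher and 4.001% lower by 2-fold or more, and 51.97% had a ratio above 0. For the response element core, 314 other genes had a median of 0.10, with 29 (9.24%) higher and 12 (3.82%) lower by 2-fold or more. Of the 314 genes 8 belong to the list of type I interferon-stimulated genes read below. Of these 8, 5 (62.5%) were higher by 2-fold or more. Of the 11 genes of that list with a window and a ratio but no core, 6 (54.5%) were higher by that much. With that list left out, 306 genes with the core had a median of 0.07, with 7.84% higher and 3.92% lower. The 9240 genes without the core had a median of 0.03, with 5.73% higher and 3.98% lower.

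Type I interferon-stimulated genes, to which several Slfn genes belong in other cells, were the list that stood highest in gamma/delta cells among the 4 pathway lists. Of 28 measured members 27 had a ratio, 17 were higher in gamma/delta cells by 2-fold or more, 0 were lower by that much, and the median log2 ratio was 1.18. Over all 11914 genes with a ratio, 5.82% were higher and 3.93% lower by 2-fold or more, and the median was 0.03. Ifit1, which binds foreign RNA, had 4750 in gamma/delta cells and 274.1 in CD8+ alpha/beta cells. The antiviral enzyme Rsad2 had 3354 in gamma/delta cells and 314.8 in CD8+ alpha/beta cells, and Rtp4 had 3144 in gamma/delta cells and 356.5 in CD8+ alpha/beta cells. Usp18, which removes ISG15 from proteins, had 2303 in gamma/delta cells and 20.8 in CD8+ alpha/beta cells. These 4 were 17.3-fold, 10.7-fold, 8.82-fold and at least 9.46-fold higher. Of the 27 members 16 lay above the floor on both arrays, with a median of 1.44. The rest were under the floor in CD8+ alpha/beta cells, so the floor fixed their direction and they could not be lower. The 17 calls include such bounds, that of Usp18 among them, which are not counted as support for a direction. Of the 10 Slfn genes, all with a ratio, 1 was higher and 1 lower by 2-fold or more, and the median was 0.05.

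The list of T cell quiescence regulators had 20 members with a ratio, and the median was -0.24. Of these 20, 1 was higher and 5 were lower in gamma/delta cells by 2-fold or more. Over all genes with a ratio 5.82% were higher and 3.93% lower. The probe sets of the 1 higher member ran from -0.82 to 1.09, so no direction can be given for it. Bach2, a transcriptional repressor of naive T cells, had 1167 in gamma/delta cells and 7351 in CD8+ alpha/beta cells (-2.66), a ratio close to that of Slfn1. Tob1, an antiproliferative protein, had 2091 in gamma/delta cells and 6433 in CD8+ alpha/beta cells (-1.62). Rc3h1, the RNA-binding protein Roquin-1, had a ratio of -1.55. Ndrg1 had a bound of -1.74, and its probe sets ran from -1.74 to 0.33, so no direction can be given. Bach2 was lower on all 3 of its probe sets, with ratios from -2.66 to -1.33. Tob1 and Rc3h1 each had a ratio on 1 probe set only.

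Because Slfn2 acts on transfer RNA, genes of transfer RNA cleavage, splicing and protection were also read. Over all genes with a ratio 5.82% were higher and 3.93% lower by 2-fold or more. Of the 11 here with a ratio 0 were higher and 1 was lower by that much, and the median was 0.17. The lower one was Clp1, an RNA kinase of transfer RNA splicing, with 261.9 in gamma/delta cells and 637.5 in CD8+ alpha/beta cells (-1.28). Trnt1, which adds the CCA end, and the ligase Rtcb had ratios of 0.74 and 0.72, and Tsen15, a splicing endonuclease subunit, had a bound of -0.88. Ang, the angiogenin gene, read 299.1 in gamma/delta cells and 214.9 in CD8+ alpha/beta cells, and its inhibitor Rnh1 read 490.6 in gamma/delta cells and 419.8 in CD8+ alpha/beta cells. Ang and Rnh1 were named after their values were seen.

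Activation and proliferation genes went both ways, with a median of 0.07. In gamma/delta cells 2 of 12 were higher and 4 lower by 2-fold or more, beside 5.82% and 3.93% over all genes. With the probe sets of a gene averaged 1 was lower and the median was -0.23, so the count and the sign of the median depend on which probe set stands for a gene. Egr1 and Nr4a1, early targets of the T cell receptor, were 5.74-fold and at least 3.97-fold higher. Stmn1, a tubulin-binding protein of dividing cells, was 2.88-fold lower with 8864 in gamma/delta cells and 25540 in CD8+ alpha/beta cells. Ccna2, a cyclin, was 2.53-fold lower, but its probe sets ran from -1.34 to 0.19.

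**Figure D4:**
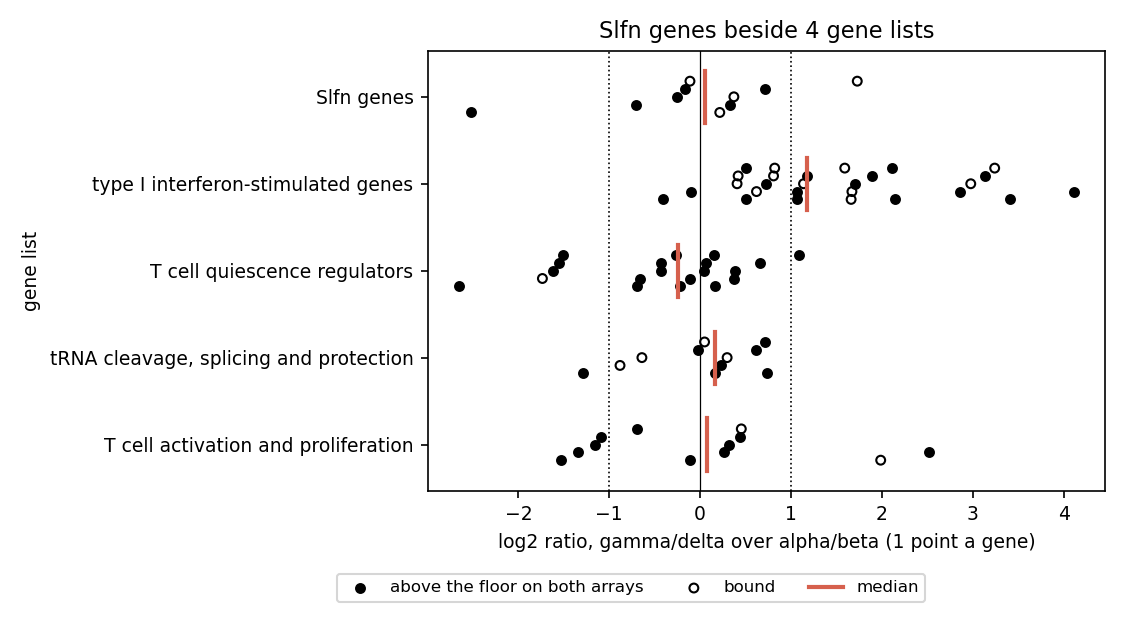
Log2 ratio of gamma/delta over alpha/beta (horizontal axis) with 1 point a gene, for the Slfn genes and 4 gene lists; open points are bounds, red bars are medians and dotted lines mark 2-fold. The Slfn genes lie on both sides of 0 with a median of 0.05, while the interferon-stimulated genes have a median of 1.18.

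With 2 arrays, likeness of pattern can only mean similar signals on both. For the lower Slfn probe set, that of Slfn1, the nearest were 2 probe sets of Btbd11 and 1 of Znrf2, at distances of 0.17 to 0.35 on the log2 scale, with ratios of -2.58 to -2.18. For the higher one, of Slfn5, the nearest were Taf10, Mpg and Irf7, at distances of 0.04 to 0.07. Their signals in CD8+ alpha/beta cells, like that of Slfn5, were all under the floor, so this likeness rests on a signal with little order. Irf7, the interferon-induced transcription factor, had 770.2 in gamma/delta cells and 230.1 in CD8+ alpha/beta cells.

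The labels were checked against marker genes. All 5 gamma/delta markers measured, among them Trgv4, Trgv1, Sox13 and Cd163l1, were higher in gamma/delta cells by 2-fold or more, and all 5 were under the floor in CD8+ alpha/beta cells. Cd8a and Cd8b1 were 12.1-fold and 5.74-fold lower in gamma/delta cells. Cd8a was lower on all 5 of its probe sets, with log2 ratios from -3.60 to -1.19. Tcra, the alpha chain gene, went against the labels on its 1 probe set, with 379.0 in gamma/delta cells and 170.3 in CD8+ alpha/beta cells, under the floor there and so at least 1.56-fold higher. Of 7 markers of all T cells 3 (Cd3g, Lat and Thy1) were higher in gamma/delta cells by 2-fold or more, and 0 were lower. Cd44 read 524.9 in gamma/delta cells and 421.0 in CD8+ alpha/beta cells, but its probe sets ran from -0.85 to 0.97, so no direction can be given. Of 13 myeloid and dendritic markers, beside which Slfn4 may be read, 2 were above the floor in gamma/delta cells and 4 in CD8+ alpha/beta cells, with summed signals of 1904 in gamma/delta and 2034 in CD8+ alpha/beta cells. For 8 B cell markers the sums were 5645 in gamma/delta cells and 4532 in CD8+ alpha/beta cells, and for 8 NK and innate lymphoid markers 4074 in gamma/delta cells and 4145 in CD8+ alpha/beta cells. For 6 helper and regulatory T cell markers they were 1164 in gamma/delta cells and 1401 in CD8+ alpha/beta cells, and for 8 stromal, endothelial and erythroid markers 2484 in gamma/delta cells and 2853 in CD8+ alpha/beta cells. None of these 5 lists had a member called at the floor used. Fcer1g, a receptor subunit of myeloid cells, read 174.3 in gamma/delta cells and 379.9 in CD8+ alpha/beta cells, and 1 myeloid marker was lower by 2-fold or more with the lower floor. With no floor 4 myeloid markers were higher and 3 lower. The B cell list then had 1 higher and 1 lower, and the helper, NK and stromal lists had 3, 2 and 1 lower. Of all probe sets with 1 symbol and a ratio, 8.28% were higher and 7.40% lower with the lower floor. With no floor these shares were 17.9% and 16.5%. Above the floor on both arrays were 4 B cell markers, 5 NK and innate lymphoid markers, 3 stromal, 1 myeloid and 1 helper marker. Among them Ebf1, a B cell factor, read 3331 in gamma/delta cells and 2650 in CD8+ alpha/beta cells, and Ms4a1, the CD20 gene, read 858.2 in gamma/delta cells and 616.0 in CD8+ alpha/beta cells. The podoplanin gene Pdpn read 957.4 in gamma/delta cells and 1061 in CD8+ alpha/beta cells, S100a9 read 370.9 in gamma/delta cells and 498.4 in CD8+ alpha/beta cells, and Ctla4 read 596.9 in gamma/delta cells and 607.9 in CD8+ alpha/beta cells. Blnk, Cr2, Eomes, Prf1, Rora, Id2, Gata3, Col1a1 and Col3a1 were likewise above the floor on both arrays. Cd4, Foxp3, Cd79a, Pax5, Ncr1, Tyrobp, Lyz2, Csf1r, Cdh5 and Hba-a1, from the same lists, were under it on both. The part of other cell types in the Slfn ratios was not tested. The 3′ to 5′ signal ratio of actin was 6.99 for gamma/delta and 3.12 for alpha/beta. For Gapdh that ratio was 3.06 for gamma/delta and 3.24 for alpha/beta, and for the transferrin receptor 3.97 for gamma/delta and 4.47 for alpha/beta. The part of these in any Slfn ratio was not tested.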

How the data were processed

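RNA of 1 gamma/delta and 1 alpha/beta preparation was labelled with biotin and hybridised to 1 array each. Per the submitters' processing notes, the authors used MAS5 (Affymetrix Expression Console 1.0), and they deposited 1 linear intensity per probe set and array. Trimmed means of the deposited values were equal (500.0 on each array), so no further scaling was applied. MAS5 leaves weak signals with little order, hence the floor at the median. Control probe sets (64), probe sets with several symbols (932) and those not listed (9160) name no gene. Symbols came from the platform annotation, and all 14 Slfn probe sets matched RefSeq by gene identifier. Where a gene has several probe sets, the one brightest over both arrays (mean log2) stands for it. Ratios were computed in Python 3.11.15 with pandas 2.3.3. Calls were also run on simulated arrays whose noise was smaller than the spread between probe sets of a gene. The simulated effects lay on bright probe sets, so the run says nothing of weak signals or of the error of the Slfn calls.

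Single arrays give neither replicate error nor p-value, and their number limits the precision. The spread between probe sets of a gene had a pooled SD of 0.50 (log2, 3317 genes). Members and lists were chosen with earlier results of these data known. Named genes are all members, 5 protein-coding neighbours on each side, up to 4 genes per pathway list by size of ratio, the markers, and the 3 nearest probe sets. The gamma-activated site and the shared word were picked after the values were seen, as was the response element core. Alternatives changed the floor, the scaling, the probe set types and the averaging.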

Additional observations from a re-analysis of the deposited data

How the results depend on the processing

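No alternative turned the sign of a Slfn ratio, though a floor fixes that sign for bounds. Slfn1 was called in each of them except averaging, which left it no ratio. Counts of called probe sets moved with the floor. With a floor at the 30th percentile 3 Slfn probe sets were higher and 2 lower by 2-fold or more in gamma/delta cells. An offset of 50 in place of a floor gave 3 and 2, and no floor gave 3 and 3. A floor at the 70th percentile gave 0 higher and 1 lower, since Slfn5 lost its call, and 6 of the 14 probe sets kept a ratio. The cause is the floor itself, as the probe sets gained have 1 signal under it (Slfn5os, Slfn10-ps, Slfn3) or, without any floor, both (the weak probe set of Slfn1). Shares over all probe sets with 1 symbol and a ratio moved as well. They were 8.283% higher and 7.397% lower at the 30th percentile, and 11.8% and 10.7% with the offset. With no floor they were 17.9% and 16.5%, and at the 70th percentile 4.495% and 4.204%. Median scaling, quantile normalization, loess and the removal of _x_at, _s_at and _a_at probe sets left both counts at 1. That removal did move counts in other lists. Higher interferon-stimulated genes went from 17 to 11 and higher gamma/delta markers from 5 to 2. Lower CD8 alpha/beta markers went from 2 to 1. No paired analysis was possible because each group holds 1 array. Signals near the floor limit what can be said of Slfn3, Slfn10-ps and Slfn5os.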

Other observations

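The cluster also holds AI662270, a noncoding RNA annotated between Slfn3 and Slfn14. Its probe sets read 6286 in gamma/delta cells and 5198 in CD8+ alpha/beta cells (log2 ratio 0.27) and 1429 in gamma/delta cells and 1344 in CD8+ alpha/beta cells (0.09). AI662270 thus lay well above the floor on both arrays and read slightly higher in gamma/delta cells. Its larger ratio was close to those of Slfn9 (0.33 and 0.27). The noncoding RNA Unc45bos, on the other side of the cluster, was under the floor on both arrays. These transcripts were chosen after their values were seen.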
